A study of Homo sapiens with 4 samples.

Results

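The 8 genes described here are HNRNPU, which encodes scaffold attachment factor A (SAF-A), and 7 genes set beside it. HNRNPUL1 and HNRNPUL2 are its paralogs, SAFB, SAFB2 and SLTM form the scaffold attachment factor B family, MATR3 encodes matrin 3, and COX20 is the neighbour of HNRNPU on chromosome 1. They were chosen by symbol: every row of the expression tables whose RefSeq accession maps to 1 of the 8 symbols was taken, which gave 19 rows out of 47338 and 8 symbols out of 25027 symbols or identifiers. All 8 were among the 11053 genes compared, those whose spliced length reached 300 nt and whose FPKM averaged 1 or more across the libraries. FPKM counts a transcript's fragments relative to transcript length and to the library's mapped reads.

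RNA sequencing was performed on RPE1, an established human cell line from the retinal pigment epithelium that carries telomerase (hTERT), obtained from ATCC. Cells at low density were transfected with lipid and 10 nM of Stealth siRNA, either a negative control or 1 siRNA against SAF-A, and total RNA was taken at 24 h or 48 h. The 4 groups are therefore control siRNA at 24 h, SAF-A siRNA at 24 h, control siRNA at 48 h and SAF-A siRNA at 48 h, with no untransfected cells among them. Ribosomal RNA was depleted, and libraries were read as single reads of 50 bases. Each group is 1 library and the knockdown rests on 1 siRNA sequence, so differences have no replicate check and no p-value is given. No model pooling the libraries was fitted, and the 95% bounds printed with FPKM values are those deposited with them, which cover counting error within 1 library only. Bulk RNA does not separate fewer cells expressing a gene from less RNA per cell.

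SAF-A is an abundant nuclear protein with an N-terminal SAP domain, which binds DNA, and a C-terminal RGG region, which binds RNA, and it is known for linking nuclear RNA to chromatin. The SAFB proteins carry a SAP domain, an RNA recognition motif and an RGG region, and act in transcription, splicing and the heat stress response. Matrin 3 is an RNA-binding protein of the nuclear matrix that regulates splicing. COX20 has no part in nuclear architecture: it is an assembly factor of mitochondrial cytochrome c oxidase.

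The site of the siRNA is shown beside the closest window in the coding part of the paralogs and of SAFB and SAFB2. Each window is the best match anywhere in the gene's transcripts and need not correspond to the target site. The windows begin in exon 12 for HNRNPUL1 and HNRNPUL2, in exon 2 for SAFB and in exon 4 for SAFB2. The 25 bases of the siRNA matched both HNRNPU transcripts without a mismatch, in coding exon 12 of 14, at chr1:245018884-245018908 on the minus strand of GRCh37. The best ungapped windows found in the transcripts of the other 7 genes held between 14 and 17 of the 25 bases. Over whole transcripts, at positions that need not be those of the best windows, the longest run of bases identical to any stretch of the siRNA was 12 in SLTM and 7 or 8 in the other 6 genes. Sequences run 5′ to 3′ on the coding strand, capitals mark bases identical to the siRNA, and windows for HNRNPUL2 (first and last base chr11:62483070-62483350) and SAFB2 (chr19:5613517-5616145) cross an exon junction.
HNRNPU, 25 of 25 bases: CCTGGGAATCGTGGCGGATATAATA
HNRNPUL1, 15 of 25 bases, chr19:41808788-41808812: ggaGGcAAcCGTGGCGGcTtccAgA
HNRNPUL2, 16 of 25 bases: CCTGGaAAcaGaGGgGGtTAccgTA
SAFB, 15 of 25 bases, chr19:5626431-5626455: ggTGGtAATCcTGaCGaAatTgAaA
SAFB2, 16 of 25 bases: gCTGtGgATgGgGaaGGATtTAAgA
The windows of SLTM (17 bases) and COX20 (14 bases) lie outside coding sequence and are not printed. The window of MATR3 (15 bases) lies in coding sequence and is not printed either. A match of letters is a description and no measure of silencing.

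Depth differed between the libraries. The authors' values imply 28083822 and 30701282 mapped reads for control and SAF-A siRNA at 24 h, and 28586051 and 1216740 at 48 h, so the last library stands apart and every 48 h value under SAF-A siRNA rests on few reads. The 24 h comparison and the comparison of the controls over time do not use it. In each library, 2 of 10 markers of retinal pigment epithelium were at 1 FPKM or more (MITF and OTX2). The defining gene RPE65 was listed at 0 in each library, and so was TTR. Of 5 genes listed for a cultured epithelial line 4 were at 1 FPKM or more (KRT8, KRT18, VIM and CDH2, but not TERT). VIM alone held 2145 of the 2396 FPKM of these 5 genes in control 24 h. KRT8 and KRT18 lay above their own deposited bounds in every library but SAF-A 48 h, so their levels are uncertain. In control 24 h they were at 41.9 FPKM (0 to 3.51) and 142 FPKM (0 to 7.94). Of 6 markers of other cell types 0 were at 1 FPKM or more, with a sum of at most 0.489 FPKM. Between 50.9% and 63.8% of all FPKM belonged to RNAs shorter than 300 nt, which are left out of the comparisons.

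HNRNPU itself was lower in both SAF-A siRNA libraries. Its summed level was 91.2 FPKM (95% bounds 86.8 to 95.7) with control siRNA and 10.4 FPKM (9.55 to 11.3) with SAF-A siRNA at 24 h. The 48 h libraries gave 84.6 FPKM (80.4 to 88.7) for control siRNA and 9.24 FPKM (7.03 to 11.7) for SAF-A siRNA, the last from about 74 reads. Both control libraries were high, both knockdown libraries were low, and no interval of 1 kind reached the other. The remaining level was 11.4% of control at 24 h, with 9.98% and 13.0% as the extremes that the bounds allow, and 10.9% (7.92% to 14.5%) at 48 h. On the log2(FPKM + 1) scale the differences were -3.01 and -3.06. Among all compared genes, 0.0181% had a lower difference at 24 h and 0.434% at 48 h, the wider spread at 48 h being visible in the plot of changes. With time alone HNRNPU moved little: the 48 h level was 92.7% of the 24 h level with control siRNA and 88.5% with SAF-A siRNA, with overlapping bounds in both cases and, for the latter, another sign on TPM over all rows (0.05).

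**Figure D1:**
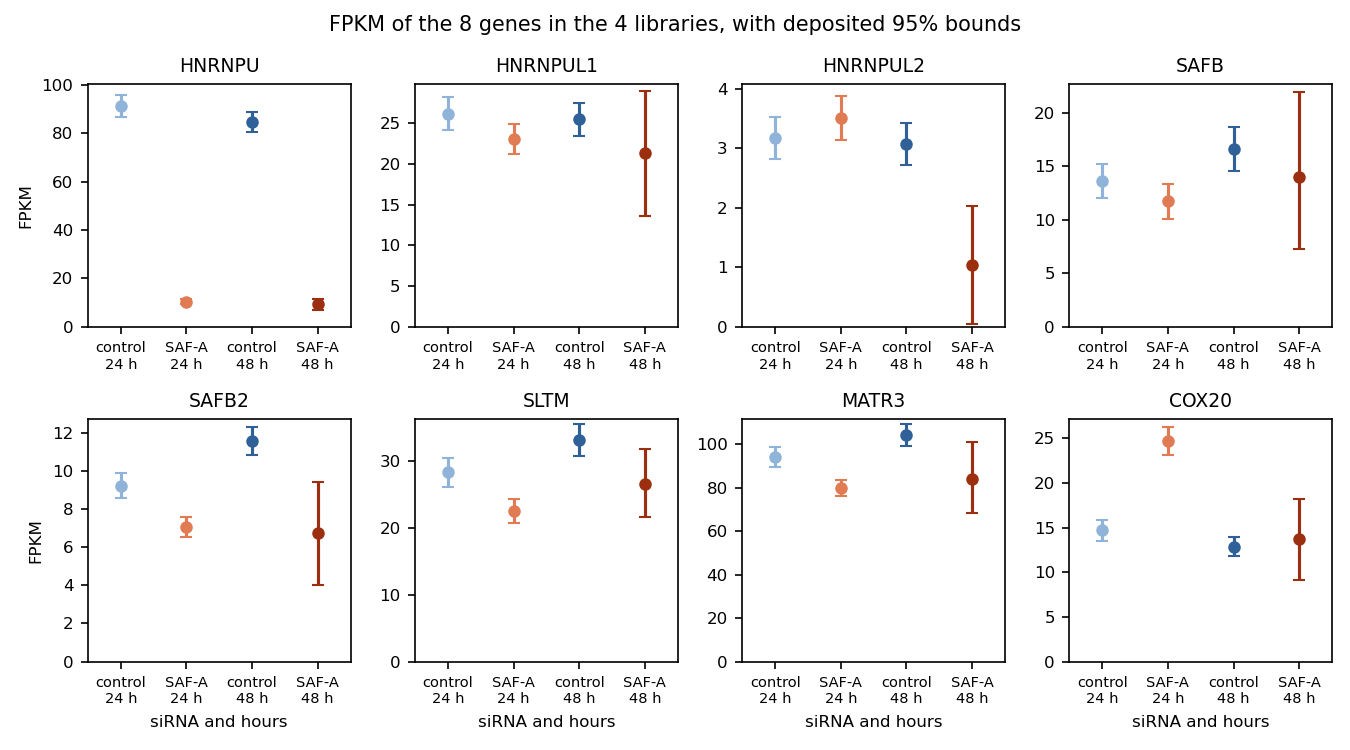
FPKM of each of the 8 genes (vertical axes, each from 0) in the 4 libraries (horizontal axes), with points for the values and bars for the deposited 95% bounds, summed over transcripts. HNRNPU is at 91.2 and 84.6 with control siRNA and at 10.4 and 9.24 with SAF-A siRNA, and COX20 is highest at 24 h with SAF-A siRNA.

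None of the 7 other genes differed by 2-fold between SAF-A and control siRNA at 24 h, in either direction. Their differences ran from -0.34 (SAFB2) to 0.71 (COX20), 5 were negative and 2 positive, and the median was -0.20, beside -0.07 over all compared genes. At 2-fold, 0.244% of all compared genes were lower and 0.389% higher, so 0 of 7 is near the background. Deposited bounds did not overlap, with the SAF-A library lower, for 3 of the 7 (SAFB2, SLTM and MATR3), against 18.4% of all compared genes. They did not overlap, with the SAF-A library higher, for 1 of the 7 (COX20), against 8.66% of all.

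At 48 h again 0 of the 7 passed 2-fold on the log2(FPKM + 1) scale. By that rule 18.5% of all compared genes were lower and 14.3% higher. HNRNPUL2 lay at the threshold, with a difference of -0.9995. In FPKM it was at 33.8% of control, and with 0.1 in place of 1 added to FPKM the difference was -1.48. Bounds did not overlap and were lower for HNRNPUL2 and SAFB2, 2 of the 7, against 27.1% of all compared genes, and they were higher for 0 of the 7, against 22.7%. The median of the 7 was -0.30, beside -0.11 over all. The spread of changes over genes averaging 5 FPKM or more was wider at 48 h (SD 1.08 on the log2 scale) than at 24 h (SD 0.24), and the depth of the SAF-A library moved with it, whose part in this spread was not tested.

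**Figure D2:**
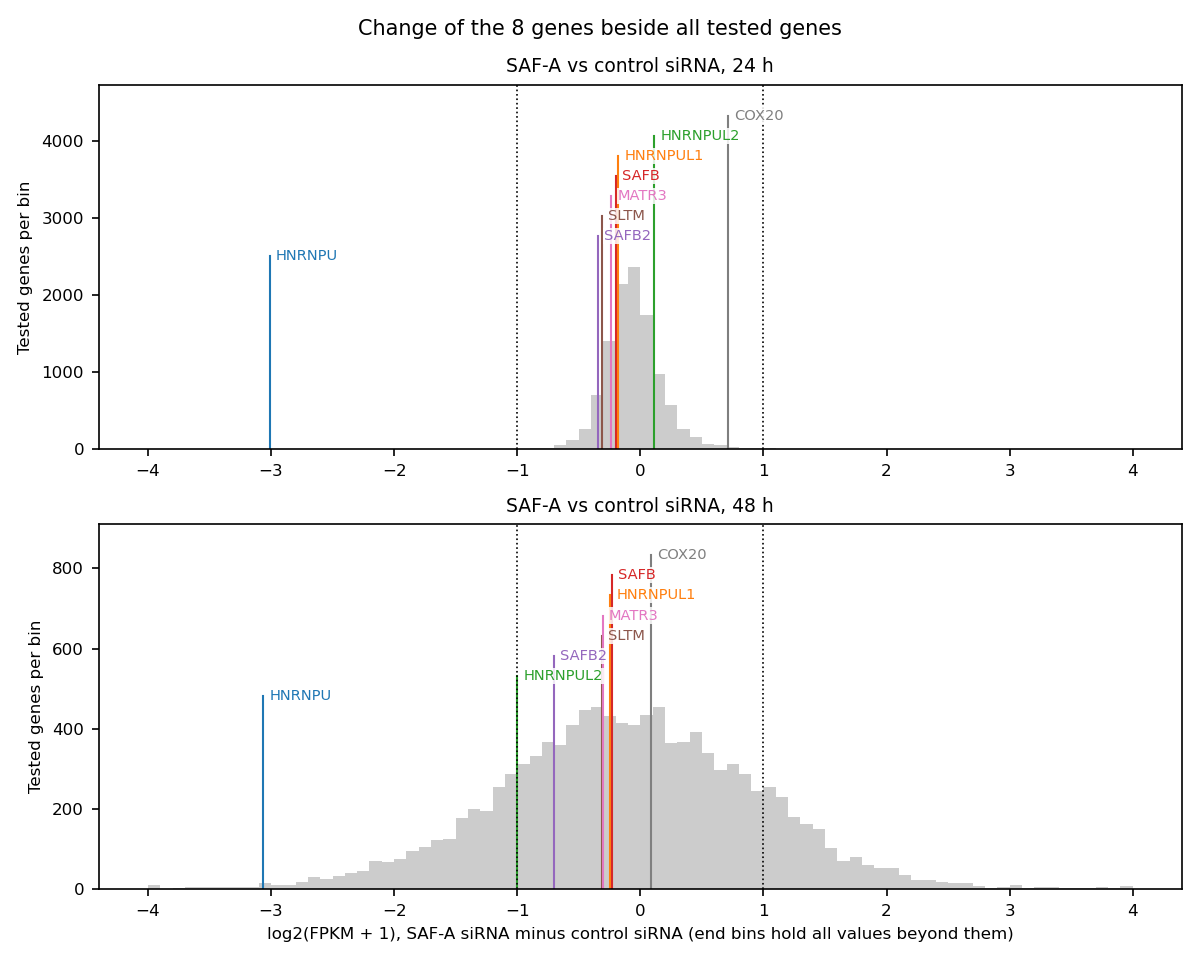
Number of compared genes (vertical axes) by difference in log2(FPKM + 1) between SAF-A and control siRNA (horizontal axis, bins of 0.1), at 24 h above and 48 h below, with a coloured line for each of the 8 genes and dotted lines at 2-fold. HNRNPU stands at -3.01 and -3.06, COX20 at 0.71 at 24 h and 0.09 at 48 h, and the other 6 genes lie inside the bulk of the distribution.

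The paralogs of HNRNPU come first among the other genes. HNRNPUL1, which shares the SAP, SPRY and RGG arrangement of SAF-A and takes part in the response to DNA breaks, was at 26.2 (control) and 23.0 FPKM (SAF-A siRNA) after 24 h, and at 25.4 and 21.3 FPKM after 48 h. Its 4 intervals all overlapped (13.6 to 29.0 in the SAF-A 48 h library, from about 96.1 reads). The level under SAF-A siRNA was 87.9% of control at 24 h and 83.7% at 48 h, on the log2 scale -0.18 and -0.25. The HNRNPUL1 value was thus below control at both times, with overlapping bounds. Counting error alone would allow up to 103% of control at 24 h and 124% at 48 h.

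HNRNPUL2, the second paralog, was the lowest of the 8 genes in every library. After 24 h it was at 3.17 FPKM in the control and 3.51 FPKM in the SAF-A library, a ratio of 111% with overlapping bounds and a sign that turned on 1 other scaling (-0.03 on TPM over all rows). After 48 h the control stood at 3.07 FPKM and the SAF-A library at 1.04 FPKM (0.0399 to 2.04), the latter from about 6.24 reads. That is 33.8% of control, with bounds that did not overlap. The SAF-A 48 h library is thus low and the other 3 lie together between 3.07 and 3.51. A second row of the files bears on this value. HNRNPUL2-BSCL2 (NR_037946), a readthrough transcript that joins HNRNPUL2 to the next gene, has 2391 nt in common with HNRNPUL2, 46.5% of its exonic bases, on the same strand. The readthrough row was at 6.02, 7.13, 5.98 and 11.1 FPKM (control then SAF-A siRNA, 24 h before 48 h), so it is highest where HNRNPUL2 is lowest. Summed, the pair gave 9.19, 10.6, 9.05 and 12.2 FPKM, a difference of 0.19 at 24 h and of 0.39 at 48 h in place of -0.9995. How the reads common to both rows were divided was not tested.

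SAFB, the founding member of its family, was at 13.6 FPKM in the control and 11.7 FPKM in the SAF-A library after 24 h. The 48 h values were 16.6 and 14.0 FPKM, the last from about 49.6 reads. Bounds overlapped at both times, with levels at 86.2% and 84.4% of control. SAFB2, its close paralog, was at 9.21 FPKM (8.56 to 9.86) in the control and 7.05 FPKM (6.50 to 7.60) in the SAF-A library after 24 h. After 48 h the 2 values were 11.6 FPKM (10.8 to 12.3) and 6.73 FPKM (4.04 to 9.42), from about 25.5 reads in the SAF-A library. Both SAF-A siRNA libraries lie below both controls for SAFB2, without overlap of the bounds at either time, at 76.6% and 58.2% of control. These are differences of -0.34 and -0.70, short of 2-fold, and 7.57% and 27.6% of compared genes had a lower one.

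SAFB and SAFB2 lie head to head, with the annotated starts of their deposited transcripts separated by 107 bases. This interval is printed because both genes start at its ends, SAFB2 leftward and SAFB rightward, and capitals mark each CG dinucleotide.
SAFB2 to SAFB, GRCh37, chr19:5622939-5623045, plus strand: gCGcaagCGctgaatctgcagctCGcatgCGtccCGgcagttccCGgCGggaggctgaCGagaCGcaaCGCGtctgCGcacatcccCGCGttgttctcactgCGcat
The interval holds 15 CG dinucleotides (the same on both strands) and 66.4% G or C. In the 107 bases before the start of 22956 RefSeq promoters the median was 8, and 16.0% of them held 15 or more. Over time with control siRNA, SAFB reached 122% and SAFB2 125% of the 24 h level. With SAF-A siRNA they reached 120% and 95.4%, with overlapping bounds for both, and the sign of the SAFB2 difference turned on TPM over all rows (0.14).

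SLTM, the SAFB-like transcription modulator, was at 28.2 FPKM (26.1 to 30.4) in the control and 22.5 FPKM (20.7 to 24.3) in the SAF-A library after 24 h. After 48 h the values were 33.1 FPKM (30.7 to 35.4) and 26.5 FPKM (21.6 to 31.8), the last from about 127 reads, and the bounds overlapped. SLTM stood at 79.7% and 80.05% of control, nearly the same ratio at both times.

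MATR3 was the most abundant of the 8 in every library. After 24 h it was at 94.1 FPKM (89.6 to 98.7) in the control and 79.8 FPKM (76.1 to 83.6) in the SAF-A library. After 48 h the values were 104 and 84.3 FPKM, the last from about 482 reads, with overlapping bounds. Its levels were 84.8% and 80.8% of control, or -0.24 and -0.30 on the log2 scale. In all, 5 of the 7 other genes (HNRNPUL1, SAFB, SAFB2, SLTM and MATR3) were lower with SAF-A siRNA at both times, between 58.2% and 87.9% of control, none of them by 2-fold, and the sign of all 5 held on each of the 3 other scalings tried. Of all compared genes, 39.8% were lower at both times, 64.3% at 24 h and 54.1% at 48 h.

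COX20 was the 1 gene of the 8 whose bounds lay above those of the control at 24 h. Its values there were 14.7 FPKM (13.5 to 15.8) in the control and 24.7 FPKM (23.1 to 26.2) in the SAF-A library, a ratio of 1.68 with 146% and 194% of control as the extremes, and 99.1% of compared genes had a lower difference. The 48 h values were 12.8 FPKM (11.8 to 13.9) in the control and 13.7 FPKM (9.16 to 18.2) in the SAF-A library, from about 40.3 reads, 107% of control with overlapping bounds and a sign that turned on 1 other scaling (-0.14 on TPM over rows of at least 300 nt). The SAF-A 24 h library is therefore high and the other 3 lie together. COX20 and HNRNPU point toward each other on opposite strands, and 5242 nt separate the end of COX20 from the end of the deposited HNRNPU transcripts.

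A noncoding row, NR_026778, lies in that region on the strand of HNRNPU (chr1:245003940-245010243) and shares 2196 nt with COX20, 83.9% of the exonic bases of COX20. The reference annotation (GENCODE) assigns all 5045 nt of it to exons of HNRNPU, but it shares 0 nt with the 2 deposited HNRNPU rows and ends 3358 nt from them. It stood at 2.02 FPKM (1.71 to 2.33) in the control and 0.928 FPKM (0.728 to 1.13) in the SAF-A library after 24 h. After 48 h it stood at 2.47 FPKM (2.13 to 2.81) and 0.646 FPKM (0 to 1.49), the last from about 3.81 reads. Like HNRNPU it was low in both SAF-A siRNA libraries without overlap of the bounds, at 45.9% and 26.2% of control, whereas COX20 on the other strand was higher at 24 h. Whether strand was used in counting is not given in the sources used here, so reads of the shared bases cannot be told apart between the rows here. Added together, COX20 and NR_026778 gave a difference of 0.59 at 24 h in place of 0.71, and of -0.09 at 48 h in place of 0.09.

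**Figure D3:**
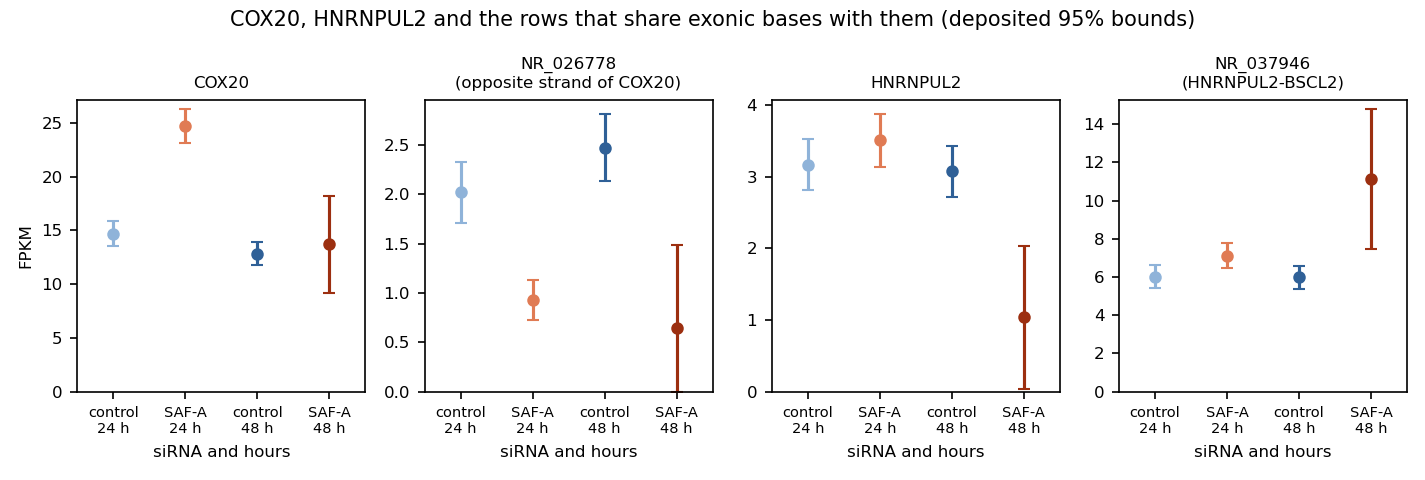
FPKM (vertical axes, each from 0) of COX20, NR_026778, HNRNPUL2 and the HNRNPUL2-BSCL2 readthrough row in the 4 libraries, with deposited 95% bounds as bars. NR_026778 is lower with SAF-A siRNA at both times (2.02 to 0.928 and 2.47 to 0.646), and the readthrough row is highest, at 11.1, in the library where HNRNPUL2 is lowest, at 1.04.

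Of 10 symbols or identifiers within 500 kb of HNRNPU, 6 entered the comparison: COX20, NR_026778 and 4 others. At 24 h 0 of the 6 passed 2-fold on the log2(FPKM + 1) scale, beside 0.633% of all compared genes in either direction. NR_026778, at 45.9% of control in FPKM, stood at -0.65 on that scale. The 4 others lay between -0.27 and 0.16, with a median of -0.12. ADSS2, an enzyme of adenine nucleotide synthesis, was at 36.6 and 31.2 FPKM (control, then SAF-A siRNA) after 24 h, and at 42.8 and 43.0 FPKM after 48 h. DESI2, a deSUMOylating peptidase homologue, was at 29.4 and 29.1 FPKM after 24 h and at 25.3 and 17.3 FPKM after 48 h. At 24 h bounds did not overlap for ADSS2 and NR_026778 (lower) and COX20 (higher), against 18.4% of all compared genes lower and 8.66% higher. At 48 h they did not overlap for DESI2 and NR_026778, both lower, against 27.1% of all compared genes. At 48 h 3 of the 6 passed 2-fold, beside 32.8% of all compared genes in either direction. NR_026778 and NR_026588 were lower and DRC8 was higher, and of these 3 only NR_026778 had bounds that did not overlap. The 4 others had a median of -0.26 at 48 h. NR_026588 lies within the span of DRC8 on the same strand, so the 2 rows are not separate loci. DRC8 was at 0.609 FPKM in control 48 h and at 3.17 FPKM in SAF-A 48 h, the latter from 4.01 estimated reads. NR_026588 was at 2.29 FPKM in control 48 h and was listed at 0.000137 FPKM in SAF-A 48 h. How reads were divided between these rows was not tested.

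The 8 genes were also followed over time within each siRNA. With control siRNA, 0 of the 7 other genes passed 2-fold from 24 h to 48 h (background 0.425% lower and 0.561% higher). Bounds did not overlap and were higher at 48 h for SAFB2, SLTM and MATR3, 3 of the 7, against 19.1% of all compared genes, and were lower for 0 of the 7, against 13.2%. The sizes were small, at 125%, 117% and 111% of the 24 h level, and the median of the 7 was 0.15 beside 0.03 over all. This comparison shares the control 24 h library with the siRNA comparison at 24 h.

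With SAF-A siRNA, HNRNPUL2 was the 1 gene of the 7 past 2-fold from 24 h to 48 h, at 29.6% of its 24 h level (-1.15), against 16.0% of all compared genes lower and 15.5% higher. The 48 h value rests on about 6.24 reads, the difference was -0.9992 on TPM over all rows, and summed with the readthrough row it was 0.18. Bounds did not overlap and were lower for HNRNPUL2 and COX20, 2 of the 7, against 24.1% of all, and were higher for 0 of the 7, against 24.6%. COX20 stood at 55.5% of its 24 h level (-0.81). The median of the 7 was -0.06, beside -0.01 over all.

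In order of level, MATR3 stood first in all 4 libraries and HNRNPUL2 last in all 4. HNRNPU stood second with control siRNA and sixth with SAF-A siRNA at both times. MATR3 and HNRNPU had overlapping bounds in the control 24 h library (89.6 to 98.7 and 86.8 to 95.7) and separate ones in control 48 h. In the SAF-A 48 h library the bounds of each neighbour in the order from SLTM down to SAFB2 overlapped, so the order between them is not resolved there. HNRNPU ranked 607 and 700 among the 11053 compared genes with control siRNA at 24 h and 48 h, and 5147 and 5499 with SAF-A siRNA.

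Transcript values add what the gene sums hide, and 5 of the 8 genes have more than 1 deposited transcript. In HNRNPU the long transcript NM_031844 differs from NM_004501 by 57 coding bases at the end of exon 1, the stretch that separates the 2 protein forms of SAF-A. Capitals mark the 57 bases, with 12 bases of the transcript on each side.
HNRNPU, GRCh37, chr1:245026919-245026975, minus strand: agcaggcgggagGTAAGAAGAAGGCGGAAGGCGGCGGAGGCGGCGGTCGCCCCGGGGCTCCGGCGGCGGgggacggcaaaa
NM_031844 took 22.0%, 27.7% and 22.0% of the HNRNPU level in control 24 h, SAF-A 24 h and control 48 h. In those libraries it stood at 20.1, 2.89 and 18.6 FPKM and NM_004501 at 71.1, 7.54 and 66.0 FPKM, so both forms were low with SAF-A siRNA at 24 h. In SAF-A 48 h it was listed at 0.000285 FPKM, but only about 1.19 reads would be expected over the 57 bases there even if every transcript held them, so that a change of form is not detectable at this depth.

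In MATR3 the difference between transcripts is large. NM_001282278 and NM_001194956 lack an exon of 1089 nt (chr5:138642928-138644016), 912 of whose bases are coding and which carries the start codon of matrin 3. The first 60 coding bases in it are printed with the start codon in capitals.
MATR3, GRCh37, chr5:138643105-138643164, plus strand: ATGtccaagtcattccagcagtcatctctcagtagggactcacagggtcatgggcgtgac
These 2 rows made up 0.0786% of the MATR3 level in control 24 h, 0.124% in control 48 h, and 32.7% in SAF-A 48 h, while in SAF-A 24 h they were at or near 0. In SAF-A 48 h they stood at 15.3 FPKM (10.8 to 19.9), from about 80.4 estimated reads, and 12.2 FPKM (8.06 to 16.4), from about 59.4. The main transcript NM_018834 stood at 92.0, 79.0, 102 and 56.7 FPKM in the 4 libraries. About 117 reads would be expected over the 1089 bases in SAF-A 48 h if every transcript held them. SNHG4, a noncoding gene that hosts a small nucleolar RNA and shares 601 nt with MATR3 transcripts of the upstream start, was at 19.4, 13.6 and 26.3 FPKM, summed over its 2 rows, in the 3 deep libraries and was listed at or near 0 in SAF-A 48 h. NM_001282278 has this upstream start and NM_001194956 does not. How reads common to SNHG4 and MATR3 rows were divided, and how far the depth of that library accounts for the share, was not tested.

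SLTM and SAFB transcripts differ by coding segments. NM_024755 of SLTM holds 54 bases in exon 7 that NM_001013843 lacks, and SAFB transcripts differ by 6 and 3 bases at exon starts. A further SAFB transcript, NM_001201340, lacks a coding segment of 207 bases in exon 4 and was listed near 0 in all 4 libraries. Capitals mark the differing bases.
SLTM, GRCh37, chr15:59192083-59192136, minus strand: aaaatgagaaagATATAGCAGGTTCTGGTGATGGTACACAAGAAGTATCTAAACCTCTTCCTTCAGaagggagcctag
SAFB, GRCh37, chr19:5667358-5667363, plus strand: tcctccccccagGGGCAGacgtgactgggg
SAFB, GRCh37, chr19:5661529-5661531, plus strand: agagtcccatagCAGggtgcgtgaacg
The SLTM form with the 54 bases took 48.6%, 55.4% and 44.3% in the 3 deep libraries and nearly all of the level in SAF-A 48 h, where about 3.32 reads would be expected over the segment. SAFB without the 6 bases (NM_002967) took 0.372% in control 24 h, 38.3% in SAF-A 24 h, 32.4% in control 48 h and about 0 in SAF-A 48 h. The 2 control libraries thus also differ from each other, and only 19.8 to 26.1 reads would be expected over those 6 bases in the deep libraries.

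The shift in shares (the sum of absolute differences divided by 2) put these genes beside all others with several transcripts. At 24 h it was 44.8% for SAFB, 9.79% for HNRNPUL1, 6.80% for SLTM, 5.70% for HNRNPU and 2.28% for MATR3, beside a median of 6.30% over 3745 genes. Between the 2 controls SAFB shifted by 39.7%, beside a median of 6.58% over 3777 genes, and both of its shifts use the control 24 h library. At 48 h the median over 3383 genes was itself 19.4%, and the values were 55.7% for SLTM, 32.6% for MATR3, 32.4% for SAFB, 22.0% for HNRNPU and 5.53% for HNRNPUL1. HNRNPUL1, whose transcripts differ by first exons of 584 and 97 nt, had the smallest shift of the 5 at 48 h. Its NM_144732 took 46.9% and 56.7% at 24 h (control, then SAF-A siRNA) and 54.6% and 60.2% at 48 h.

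**Figure D4:**
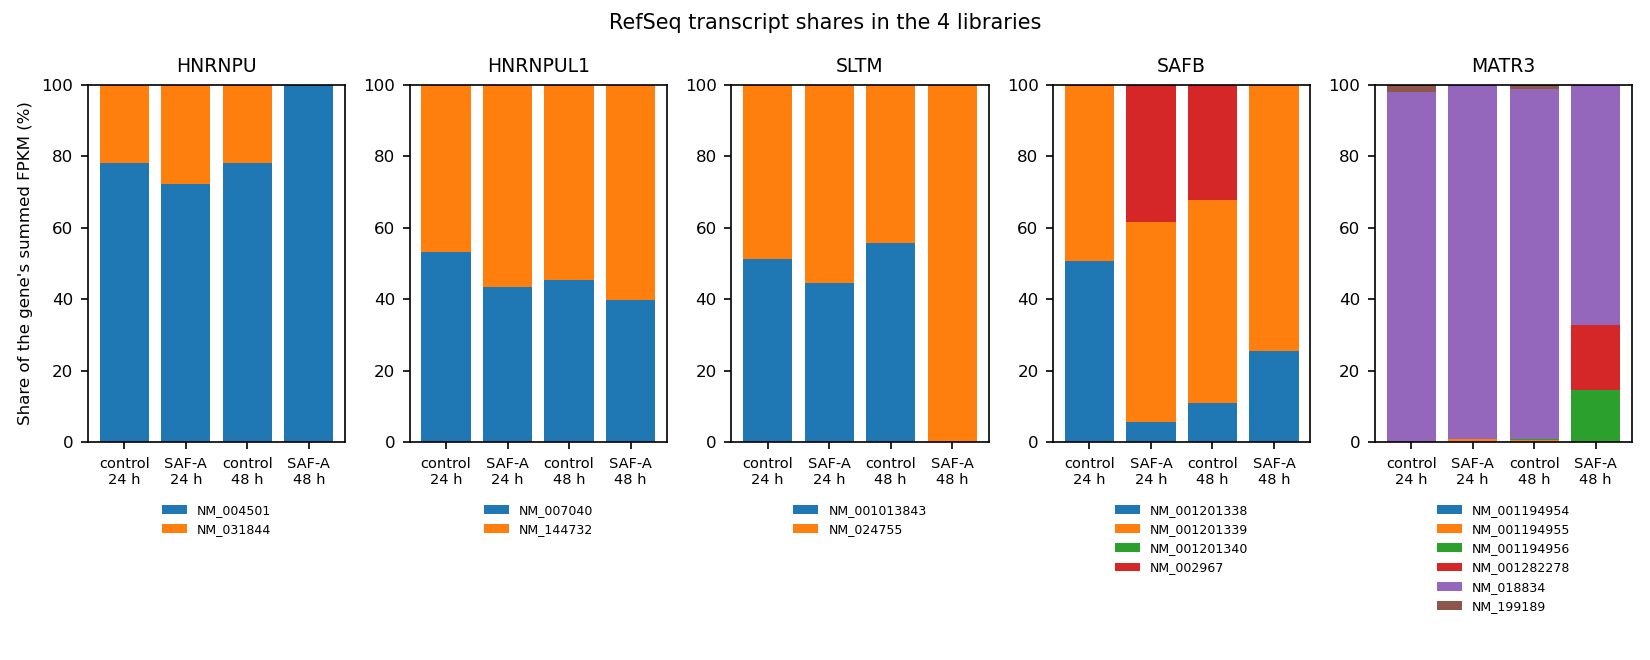
Share of each gene's summed FPKM taken by each RefSeq transcript (vertical axis, percent) in the 4 libraries (horizontal axes), for the 5 genes with several transcripts. The shares of HNRNPU and MATR3 stay close in the 3 deep libraries and differ in SAF-A 48 h. Those of SLTM vary in the deep libraries (48.6%, 55.4% and 44.3% for NM_024755) and differ further in SAF-A 48 h. Those of SAFB differ between the 2 control libraries (0.372% and 32.4% for NM_002967).

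Other proteins with a SAP domain and other nuclear matrix proteins gave the wider setting. Of 14 SAP domain genes 12 were compared (MRTFB and MYOCD were not). At 24 h 0 of the 12 passed 2-fold, beside 0.633% of all compared genes in either direction, and the median was -0.10. At 48 h 2 were lower: RAD18, a ubiquitin ligase of DNA damage tolerance, at 8.72 and 2.08 FPKM, and XRCC6, the Ku70 subunit of the end-joining machinery, at 263 and 118 FPKM. Another 2 were higher at 48 h: SARNP, an RNA export factor, at 39.3 and 134 FPKM, and PIAS3, a SUMO ligase, at 2.87 and 7.01 FPKM. The SAF-A 48 h values of RAD18, XRCC6, SARNP and PIAS3 rest on about 14.0, 277, 126 and 23.0 reads. The median at 48 h was 0.22 (-0.00 on TPM over rows of at least 300 nt), and 2 of 12 in each direction is close to the background of 18.5% and 14.3%.

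Of 13 nuclear matrix genes 12 were compared (RBM20 was not), and 0 of the 12 passed 2-fold at 24 h, with a median of -0.14. Beside this, 0.633% of all compared genes passed 2-fold at 24 h in either direction. At 48 h RBMX, an RNA-binding protein of the spliceosome, was lower at 90.3 and 19.8 FPKM, and SRRM1, a splicing coactivator, was lower at 4.10 and 0.661 FPKM. The SAF-A 48 h values rest on about 43.1 reads for RBMX and 3.00 for SRRM1. By the 2-fold rule 18.5% of all compared genes were lower at 48 h and 14.3% higher. The median at 48 h was 0.04 (-0.18 on TPM over rows of at least 300 nt). In both lists, as among the 7 genes, no gene passed 2-fold at 24 h, which is near the share of all compared genes. The calls of 48 h involve the library of 1216740 reads.

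**Figure D5:**
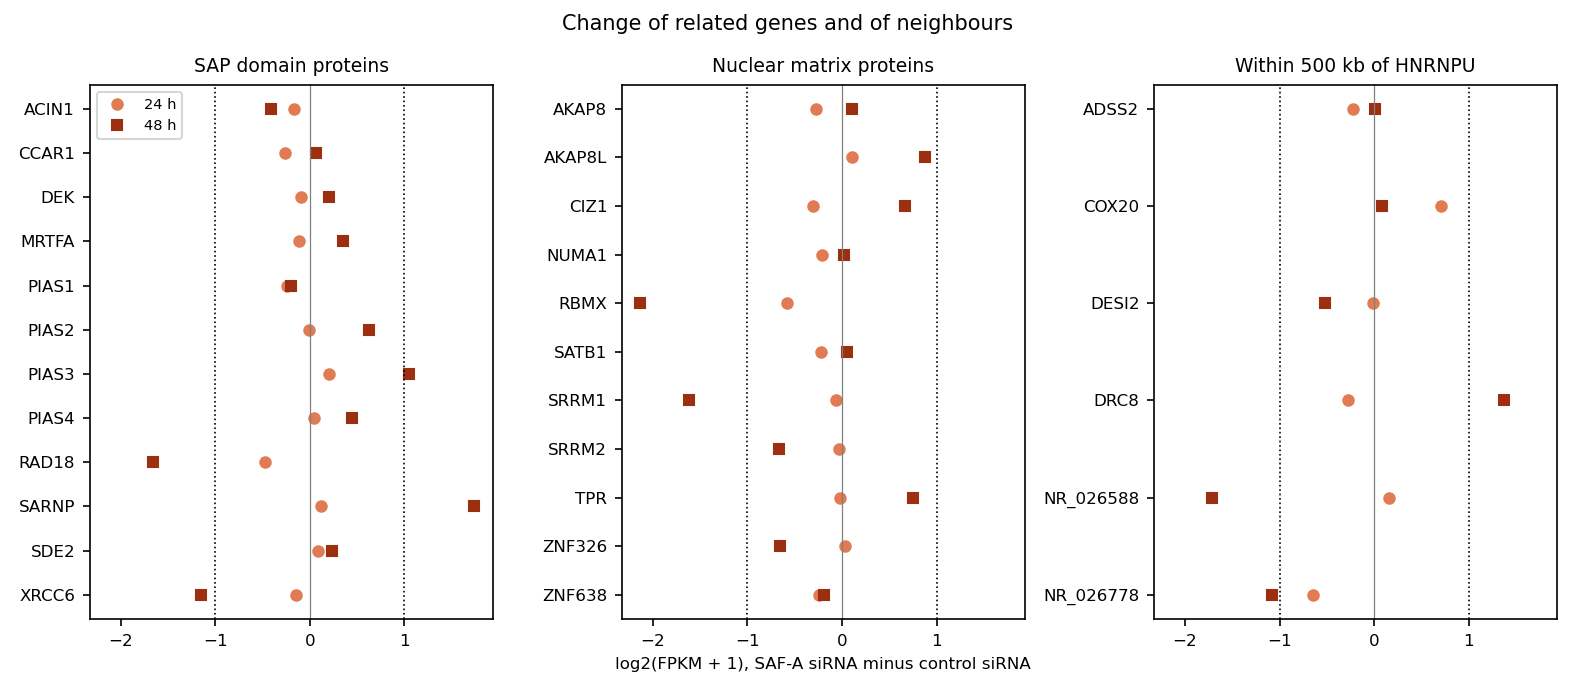
Difference in log2(FPKM + 1) between SAF-A and control siRNA (horizontal axis) for the compared SAP domain genes, 11 of the 12 compared nuclear matrix genes and the genes within 500 kb of HNRNPU, with circles at 24 h, squares at 48 h and dotted lines at 2-fold. No circle lies past 2-fold, and 4 SAP domain genes, 2 of the matrix genes drawn (RBMX and SRRM1) and 3 neighbours have squares past it.

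The genes whose pattern over the 4 libraries was most like that of HNRNPU were TXNIP, SERPINB2 and FBXO45. Likeness was the Euclidean distance between log2(FPKM + 1) values centred on each gene's own mean, among 7607 genes averaging 5 FPKM or more, and the distances were 1.54, 1.73 and 1.76. A gene at 1 level in all libraries would lie at 3.04, SAFB2 lay nearest of the ranked members at 2.53 (rank 1158), and COX20 lay farthest at 3.47 (rank 5675). TXNIP, an inhibitor of thioredoxin, was at 9.67 and 4.04 FPKM at 24 h (control, then SAF-A siRNA) and at 17.4 and 2.99 FPKM at 48 h. In the same order SERPINB2, a plasminogen activator inhibitor, was at 3.67, 1.91, 14.1 and 0.482 FPKM, and FBXO45, a ubiquitin ligase subunit, at 10.3, 5.76, 13.7 and 0.595 FPKM. All 3 were lower in both SAF-A libraries than in both controls. They were chosen by likeness to HNRNPU over these same values, so this is no separate result. The SAF-A 48 h values rest on about 10.0, 1.0 and 4.0 reads.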

How the data were processed

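The data are 4 RNA-seq libraries of RPE1 cells, 1 per group. The submitters' processing notes name TopHat2 2.0.10, Bowtie2 2.1.0, TopHat, Cufflinks 2.2.1, Cuffdiff and the build hg19. Per the file headers, the authors deposited FPKM values with 95% bounds and a status for each RefSeq accession, and transcript files with FPKM and coverage, which were used as deposited. The use of strand and of reads with several alignments is not given in the sources used here.

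FPKM and bounds were summed per symbol through a RefSeq table (GRCh38.p14, names only, 97.1% of rows matched). The sum of bounds overstates the width of the interval of a sum. Differences are in log2(FPKM + 1), which understates changes of low genes, among genes averaging 1 FPKM or more with 300 spliced nt or more, and a call is 2-fold. Estimated reads are FPKM times effective length (fragments of 200 nt, SD 80) times mapped reads, taken from coverage over FPKM and reads of 50 bases. Sequences come from the GRCh37 genome (90.4% of the 135 member exons were identical in GENCODE) and promoters from RefSeq. Python 3.11.15, numpy 2.4.6, pandas 2.3.3, pysam 0.24.0 and samtools 1.23.1 were used, and the comparison code was tested on simulated data.

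Named genes are the 8 members, the 3 most alike in pattern, up to 4 genes per list and comparison past 2-fold with separate bounds, and rows overlapping HNRNPU or COX20. ADSS2, DESI2, DRC8, NR_026588, SNHG4 and the readthrough row were named after their values were seen. The values of 1 nuclear matrix gene, counted in that list, are not reported here. The members and lists were chosen with earlier results of these data known. Alternatives were another pseudocount, filters, scalings, fold and interval rules and the rows summed.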

Additional observations from a re-analysis of the deposited data

Results flagged for a closer look

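Some genes had differences of opposite sign in 2 contrasts of the same kind, and none of these differences was tested, since each group is 1 library. HNRNPUL2 differed by 0.11 between SAF-A and control siRNA at 24 h and by -1.0 at 48 h, on the log2(FPKM + 1) scale. The bounds overlapped at 24 h, where TPM over all rows gave -0.03, and with the readthrough row added the values were 0.19 and 0.39, of 1 sign. SAFB2 differed by 0.3 from 24 h to 48 h with control siRNA and by -0.06 with SAF-A siRNA, where the sign turned on TPM over all rows (0.14). Over the same interval TXNIP differed by 0.79 with control and by -0.34 with SAF-A siRNA, SERPINB2 by 1.69 and -0.97, and FBXO45 by 0.38 and -2.08. The bounds overlapped with SAF-A siRNA over time for SAFB2, TXNIP and SERPINB2. In each pair the negative value involves the SAF-A 48 h library of 1216740 mapped reads, in which HNRNPUL2 had about 6.24 reads, and its part in these differences was not tested.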

How the results depend on the processing

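Of 474 values under alternatives 16 changed sign, and 10 of the 284 differences of single members fell on the other side of the fold threshold. The 474 include counts and percentages, which have no sign. Filters and the interval and fold rules leave the difference of a single member as it was. These totals are therefore no measure of how stable the results are. The level of HNRNPU stayed between 9.28% and 14.0% of control. A threshold of 1.5-fold gave 1 higher member at 24 h (COX20, beside 1.47% of all genes), 2 lower at 48 h (HNRNPUL2 and SAFB2, beside 31.4%) and 2 over time with SAF-A siRNA (HNRNPUL2 and COX20, beside 55.6%). It also gave 8 of 12 matrix genes at 48 h in either direction, beside 31.4% of all genes lower and 25.1% higher. Of 6 neighbours of HNRNPU it gave 2 at 24 h, beside 1.19% of all genes lower and 1.47% higher. HNRNPUL2 became the 1 lower member at 48 h with a pseudocount of 0.1, after centring on the median change, and on both TPM scales (-1.48, -1.04, -1.06 and -1.45). Of all genes, 23.8%, 19.7%, 19.8% and 27.8% were lower under these settings. Over time with SAF-A siRNA the 1 changed member became 0 with a mean of at least 5 FPKM (HNRNPUL2 is then left out) and 0 on TPM over all rows, and became 2 on TPM over rows of at least 300 nt (COX20 at -1.03). Of all genes, 33.1%, 33.2% and 36.4% changed under these settings. A mean of at least 5 FPKM left 1 of 7 matrix genes and 0 of 3 neighbours at 48 h, beside 16.7% of all genes lower and 17.0% higher. Bounds that must not overlap left 1 neighbour at 48 h, beside 16.6% lower and 12.8% higher. A pseudocount of 0.1 gave 1 neighbour at 24 h, beside 0.525% lower and 0.706% higher.

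Summed with its readthrough row, an alternative added after seeing the data, HNRNPUL2 reversed from -1.15 to 0.18 over time with SAF-A siRNA, and at 48 h stood at 0.39. Signs of small differences also turned with scaling: HNRNPUL2 at 24 h was -0.03 on TPM over all rows, COX20 at 48 h was -0.14 on TPM over rows of at least 300 nt, and the SAP and matrix lists at 48 h had medians of -0.00 and -0.18 there. Over time with SAF-A siRNA, TPM over all rows gave 0.05 for HNRNPU, 0.11 for HNRNPUL1 and 0.14 for SAFB2, and TPM over rows of at least 300 nt gave -0.13 for MATR3. Over time with control siRNA, TPM over all rows gave 0.04 for HNRNPUL1 and 0.03 for HNRNPUL2. MATR3 at 24 h moved to -0.42 on TPM over all rows, with its direction kept. The causes were not tested.

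No paired analysis was possible because each group is 1 library and the labels number no replicates. A fit of siRNA with time as a block, over 2 pairs of libraries, was not run. The depth of SAF-A 48 h limits every value that uses it, and no alternative replaces that library.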
